A study of Rattus norvegicus with 12 samples.

Results

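Untreated primary cultures of rat hippocampus were compared at 26 h and at 9 h of an activity-blockade experiment, over all genes on the array. The comparison used the 3 untreated arrays of each time, chosen by their titles, 6 of the 12 arrays of the series. Neurons of Wistar rat embryos (embryonic day 18) had been in culture for 14 to 15 days, and each array of a group came from an independent culture, per the labels. No agent was given to the untreated cultures; they were the controls of sister cultures kept with 50 µM GYKI-52466, which blocks AMPA-type glutamate receptors, and 10 µM MK-801, which blocks NMDA-type ones, for the same 9 h or 26 h (the blocked groups, 3 arrays each). The series asks how transcripts respond to long blockade, and this contrast between its controls shows how transcripts differ between the times without any drug. The labels as given here do not state the hour of the day at harvest or any change of medium.

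Several kinds of transcript are known to vary with time in such cultures. Immediate early genes are switched on within minutes of synaptic activity, calcium entry, growth factors or handling, and most decay within hours. The circadian clock is a feedback loop in which CLOCK and BMAL1 drive Per, Cry, Nr1d and Dbp genes, whose products then act back on the loop, and cells of many tissues run it in culture. Neurons of this age are still maturing, with rising synaptic proteins, among dividing or differentiating glia.

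Levels are given as log2 of the background-corrected signal, with each array set to its own 75th percentile, so 0 marks a probe as bright as the 75th percentile, a difference of 1 is a 2-fold difference in signal, and levels of different genes (different probes) are not comparable. The share of the 42877 spots, controls left out, that lay well above background was 77.6% to 86.8% per array. Arrays of the same untreated group correlated across genes at 0.985 to 0.994, and arrays of different untreated groups at 0.978 to 0.986. In these bulk samples, fewer cells of a type and less RNA per cell cannot be told apart. The 3 untreated 9 h arrays and the 3 untreated 26 h arrays were scanned on different days, and they also sat at different positions on their slides, so day, position and time cannot be told apart among the 6 untreated arrays. In the blocked cultures the days ran the other way round (blocked 26 h with untreated 9 h, blocked 9 h with untreated 26 h), so the time difference in the blocked cultures, which shares no array with the untreated one, is given beside most results. The 10 probes for the E1A control RNA, added by the laboratory and not made by the cells, had a median difference of 3.06 in the untreated and -3.10 in the blocked cultures, and 7 of the 10 did not overlap between the untreated times. The part of the scan day in any single difference was not tested.

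Of 21245 genes and unnamed targets tested, 4289 (20.2%) passed an adjusted p of 0.05 (limma, Benjamini-Hochberg) between untreated 26 h and 9 h cultures. At 26 h, 2198 (10.3%) were higher and 2091 (9.84%) lower. Most differences were small: the median size was 0.58 for the higher and -0.66 for the lower genes, and 195 genes (0.918%) were at least 2-fold higher and 411 (1.93%) at least 2-fold lower. Without any model, 6917 genes (32.6%) had 3 arrays of 1 time entirely above the 3 of the other, 3608 of them (17.0%) higher and 3309 (15.6%) lower at 26 h. Where only the 6 untreated arrays were fitted, 1531 genes passed, and without the second untreated 26 h array 2494 did. With scan day as a term beside time and blockade over all 12 arrays, 2700 passed, and 1435 of the 4289 were among them with the same sign. In that fit the time difference is the mean of the untreated and the blocked one, not the untreated one freed of scan day. Within scan day 1 (blocked 26 h minus untreated 9 h) 2892 passed and within scan day 2 (untreated 26 h minus blocked 9 h) 751, and these differences hold time and blockade together.

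In the blocked cultures 5320 genes (25.0%) passed, 2236 of them higher and 3084 lower. They showed a difference of the same sign for 1443 of the 4289 genes (33.6%), against 40.0% over all genes tested. The split was uneven between the directions: 926 of the 2091 genes that fell (44.3%) and 517 of the 2198 that rose (23.5%) went the same way in the blocked cultures. Past the threshold in both pairs of groups with the same sign were 128 genes that were higher (0.602% of all genes) and 385 that were lower (1.81%), 513 in all (2.41%). Past the threshold in both with opposite signs were 1426 (6.71%), 928 of them (4.37%) higher at 26 h in untreated and lower in blocked cultures and 498 (2.34%) the reverse. Among the genes at least 2-fold lower, 67.6% were also lower in the blocked cultures, and of those at least 2-fold higher 28.2% were also higher there. The 513 genes with the same sign became 316 to 482 without 1 array, and they fell by over 1.5 times without the second untreated 26 h (323), the first blocked 9 h (332), the third blocked 9 h (316), the first blocked 26 h (338) or the second blocked 26 h array (328). The difference between the untreated and the blocked time difference itself passed for 6076 genes (28.6%), with 3371 (15.9%) higher and 2705 (12.7%) lower in the untreated cultures, 2992 of which were among the 4289. With slide as a random block it passed for 3531.

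**Figure D1:**
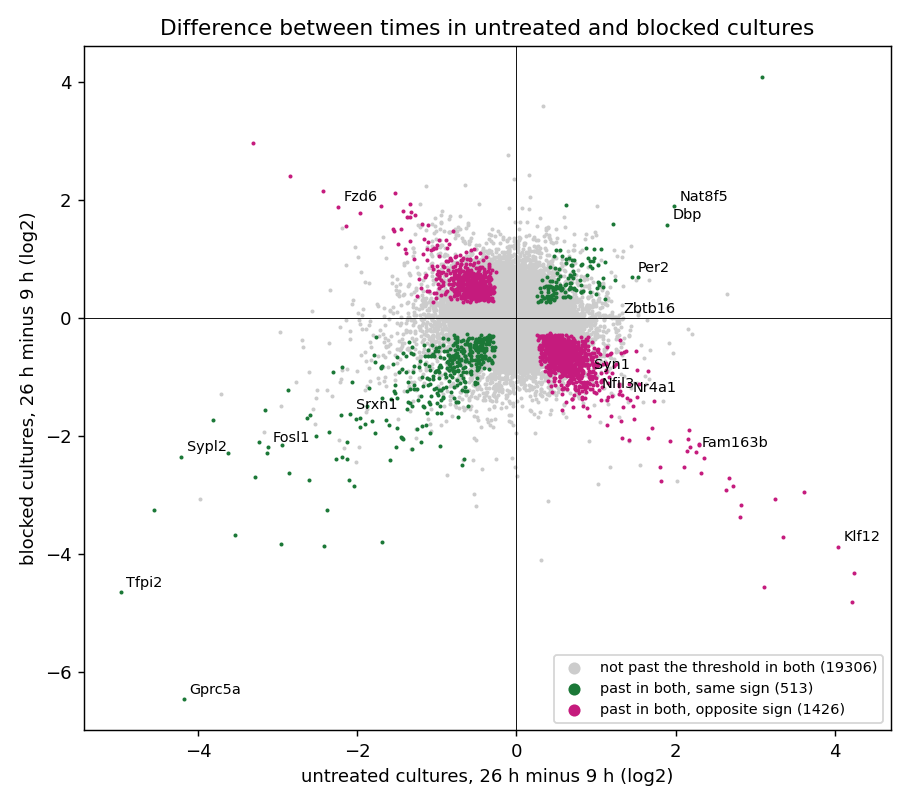
Each point is a gene or unnamed target, with the 26 h minus 9 h difference (log2) in untreated cultures on the x axis and in blocked cultures on the y axis, from 3 arrays per group. The 513 genes past the threshold in both with the same sign (green) reach farthest towards the lower left (Gprc5a, Tfpi2), and the 1426 with opposite signs (pink) lie along the other diagonal (Klf12, Fzd6).

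The 10 largest falls in untreated cultures, ranked by the fitted difference, were taken only from genes without overlap between the untreated times. Of these, 8 also passed as lower at 26 h in the blocked cultures. For Tfpi2, Il1rl1, Esam, Slfn2 and Hsd17b2 the 26 h arrays were not well above background, so these 5 are known by a bound and their place in that order is not fixed. Tfpi2, a secreted inhibitor of serine proteases, stood at -3.44, -5.99 and -4.58 in the 3 untreated arrays at 9 h and at -9.84, -9.70 and -9.38 at 26 h, where no array was well above background. That is a fall of at least 11.3-fold, taken against the dimmest signal still well above background on each array (adjusted p = 0.00134), and in the blocked cultures Tfpi2 was at least 6.61-fold lower at 26 h (adjusted p = 0.00144). The times did not overlap under either treatment.

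Gprc5a, an orphan receptor of the G protein-coupled class known to be induced by retinoic acid, was bright at 9 h, with 2.83, 2.04 and 1.80, and fell to -1.85, -1.53 and -2.49 at 26 h. The difference was -4.18 ± 0.38 (SE, adjusted p = 0.000283), without overlap. In the blocked cultures Gprc5a differed by -6.46 (adjusted p = 4.46e-05), and the difference between the 2 falls also passed (adjusted p = 0.0106). Sypl2, a relative of the synaptic vesicle protein synaptophysin, stood at -2.21, -1.79 and -0.81 at 9 h and at -6.43, -5.55 and -5.47 at 26 h (-4.21 ± 0.37, adjusted p = 0.000239), and differed by -2.34 in the blocked cultures; a second Sypl2 probe, dimmer, showed only -0.29. Agpat2, an enzyme of phospholipid and triglyceride synthesis, fell by 3.63 (adjusted p = 0.00324) and Sfnl1 by 3.23 (adjusted p = 0.000239), both without overlap and both also lower in the blocked cultures (-2.28 and -2.10). At 26 h Agpat2 was well above background on 2 of 3 untreated and 1 of 3 blocked arrays.

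Hsd17b2, which oxidises estradiol and testosterone to less active forms, fell at least 6.75-fold from -4.62, -5.96 and -5.67 (adjusted p = 0.000395), with no 26 h array well above background. Plau, the urokinase plasminogen activator, stood at -5.87, -6.35 and -5.53 at 9 h and -10.19, -8.20 and -8.25 at 26 h (-2.96 ± 0.52, adjusted p = 0.00408), and was measured on 2 of the 3 later arrays. Plau was at least 4.29-fold and Hsd17b2 at least 3.58-fold lower at 26 h in the blocked cultures, with no 26 h array well above background. Both passed the threshold there, which was a condition of the choice of Plau.

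Cldn14, a tight junction claudin, fell by 3.29 (adjusted p = 0.0186), Esam, an adhesion molecule of endothelial and platelet junctions, fell at least 4.44-fold (adjusted p = 0.000788), and Flnc, an actin-crosslinking filamin, fell by 2.61 (adjusted p = 0.0104) from -0.72, -0.63 and 0.36 to -4.11, -2.68 and -2.03. Lack of overlap between the untreated times was a condition of the choice of Cldn14 and Esam, and it held for Flnc too. All 3 passed in the blocked cultures, which was a condition of the choice of Flnc. The blocked differences were -2.68 for Cldn14, a fall of at least 1.63-fold for Esam and -2.74 for Flnc. At 26 h Cldn14 was well above background on 2 of 3 arrays under either treatment. The endothelial marker Pecam1 differed by -0.53 and did not pass (adjusted p = 0.127).

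Several of the remaining falls were of dim or variable probes. Il1rl1, the receptor for interleukin-33, fell at least 9.02-fold (adjusted p = 0.0427), but its 9 h arrays were spread from -6.67 to -2.69, and the -3.06 in the blocked cultures did not pass. Slfn2, of the schlafen family of growth regulators, fell at least 4.15-fold (adjusted p = 0.00695), and its blocked difference of -1.29 did not pass. Adam2, of the family of membrane-bound disintegrins, and Mptx1, of the pentraxins, were near background, with falls of at least 2.95-fold and 1.92-fold in the untreated cultures and of at least 4.72-fold and 5.20-fold in the blocked ones; Mptx1 was well above background on 1 of 3 arrays at 9 h.

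**Figure D2:**
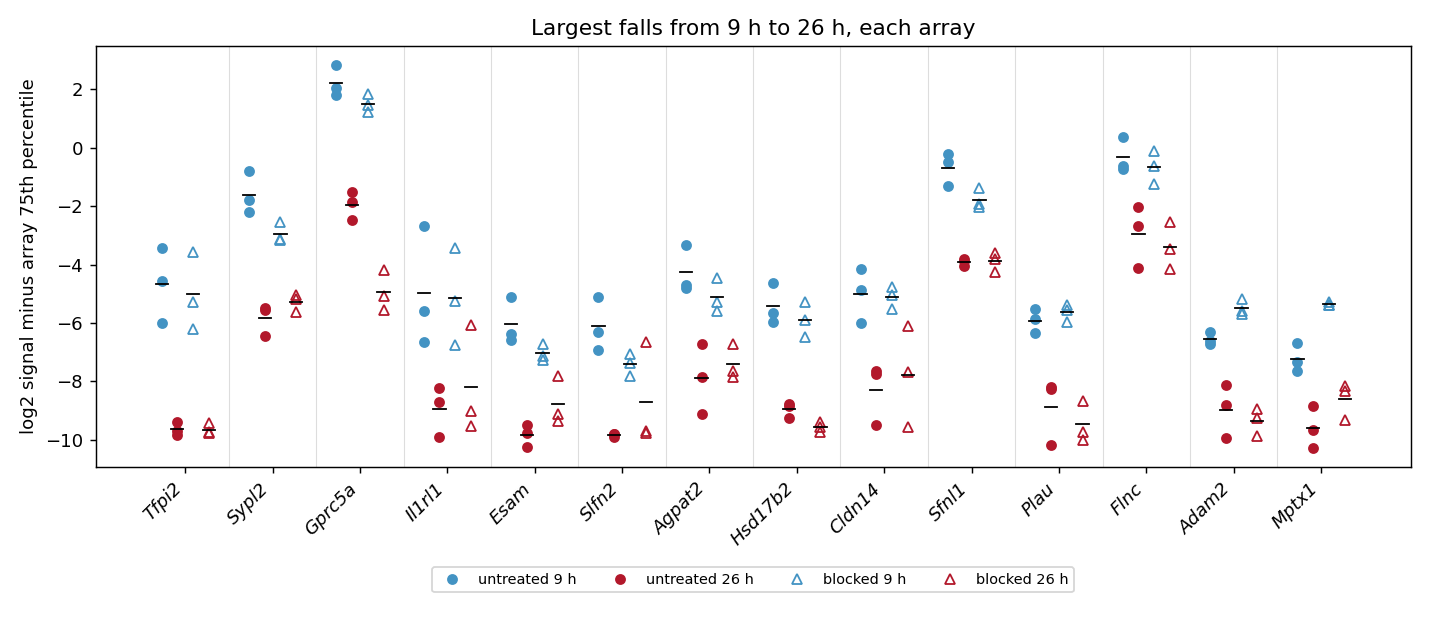
Level of each gene (log2 signal relative to the array's 75th percentile, y axis) in every array of the 4 groups, for the genes named by size of fall, with filled circles for untreated, open triangles for blocked cultures, and a bar at the mean of 3. In the untreated cultures the 9 h circles (blue) lie above the 26 h circles (red) without overlap for all 14 genes, and in the blocked cultures the triangles overlap for Il1rl1 and Slfn2 alone.

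The 10 largest rises by the fitted difference were likewise taken only from genes without overlap between the untreated times. Of these, 7 passed with the opposite sign in the blocked cultures and 2 with the same sign. Klf12, a zinc-finger repressor, stood at -5.97, -4.99 and -4.74 in untreated cultures at 9 h and at -1.70, -1.39 and -0.47 at 26 h, a difference of 4.05 ± 0.44 (adjusted p = 0.000559). The blocked cultures gave the mirror image, with -1.90, -1.46 and -0.47 at 9 h and -5.49, -5.07 and -4.88 at 26 h (-3.87, adjusted p = 0.000604). The levels thus lay together by scan day, and a second, dimmer Klf12 probe differed by 1.78 in untreated and 0.13 in blocked cultures. The same crossed order held for Fam163b, at -3.82, -3.50 and -3.13 against -1.36, -1.07 and -1.24 (2.26 ± 0.19, adjusted p = 0.000223) and -2.27 in the blocked cultures. A second Fam163b probe differed by less, 0.69 and -0.58.

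The other 5 opposed rises had that form. Alx4, a homeobox factor, differed by 3.35 and -3.71 (untreated, then blocked), and Itpkb, which phosphorylates inositol trisphosphate, by 2.30 and -2.13. Aadacl4fm1 was at least 3.26-fold higher at 26 h in untreated and at least 3.80-fold lower in blocked cultures, with no array well above background in the lower group of each pair. Gpr165, an orphan receptor, rose by 2.17 and was at least 3.06-fold lower at 26 h in the blocked cultures, and Uts2r, the urotensin receptor, differed by 2.14 and -2.24. Each passed in both pairs of groups, with adjusted p from 0.000949 to 0.0313. At 9 h in untreated cultures, Itpkb, Gpr165 and Uts2r were well above background on 1 of 3 arrays and Alx4 on 2 of 3. Their sizes thus rest partly on dim signals. A second Gpr165 probe differed by -0.02 in the untreated cultures.

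Of the falls opposed in the blocked cultures, the 4 largest by the smaller of both differences were of Fzd6, Hyal2, Fcgr2b and Snrnp48. Fzd6, a Wnt receptor, stood at -4.26, -3.93 and -3.60 at 9 h and -6.46, -5.81 and -6.24 at 26 h (-2.24 ± 0.22, adjusted p = 0.000331), and differed by 1.89 in the blocked cultures. Hyal2, a hyaluronan-cleaving enzyme, differed by -1.04 and 0.84, Fcgr2b, the inhibitory Fc receptor, by -0.93 and 0.89, and Snrnp48, of the minor spliceosome, by -0.87 and 0.98. A second probe of Fzd6 and of Fcgr2b was lower at 26 h in both pairs (-1.07 and -0.26 for Fzd6, -0.49 and -0.61 for Fcgr2b).

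Amigo2, an adhesion protein that marks CA2 neurons and supports survival of depolarised neurons, rose in the untreated cultures by 2.16 ± 0.32 (adjusted p = 0.00175), from -3.86, -3.40 and -4.17 to -1.06, -1.59 and -2.28. Its blocked difference was -0.19 and did not pass, and the difference between the pairs passed (adjusted p = 0.00364). Levels in the blocked cultures stayed between -4.05 and -3.31 at both times, next to those of untreated 9 h cultures. A second Amigo2 probe differed by 1.5 and -0.04.

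Rises seen in both pairs of groups were led by Gja5, Nat8f5 and Dbp. Nat8f5, of a family of acetyltransferases, stood at -7.26, -7.48 and -7.12 at 9 h and -5.39, -5.46 and -5.06 at 26 h (1.98 ± 0.20, adjusted p = 0.000411), with 1.90 in the blocked cultures. Gja5, a gap junction connexin, differed by 3.08 ± 0.91 (adjusted p = 0.0383) and 4.09, and its 26 h arrays were spread from -6.63 to -2.98. Nat8f5 and Gja5 were well above background on 2 of 3 untreated arrays at 9 h. C5h8orf34 differed by 1.21 and 1.59, Tmtc4, an enzyme that mannosylates cadherins, by 1.03 and 0.90, Acss1, the mitochondrial acetyl-CoA synthetase, by 0.98 and 1.18, Rgr, an opsin-like retinal photoisomerase, by 0.98 and 1.02, and Rxrg, a retinoid X receptor, by 0.96 and 0.96. These genes were chosen for a pass with the same sign in both pairs, and none overlapped between the untreated times. For Gja5 and Nat8f5 lack of overlap was also a condition of the choice.

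**Figure D3:**
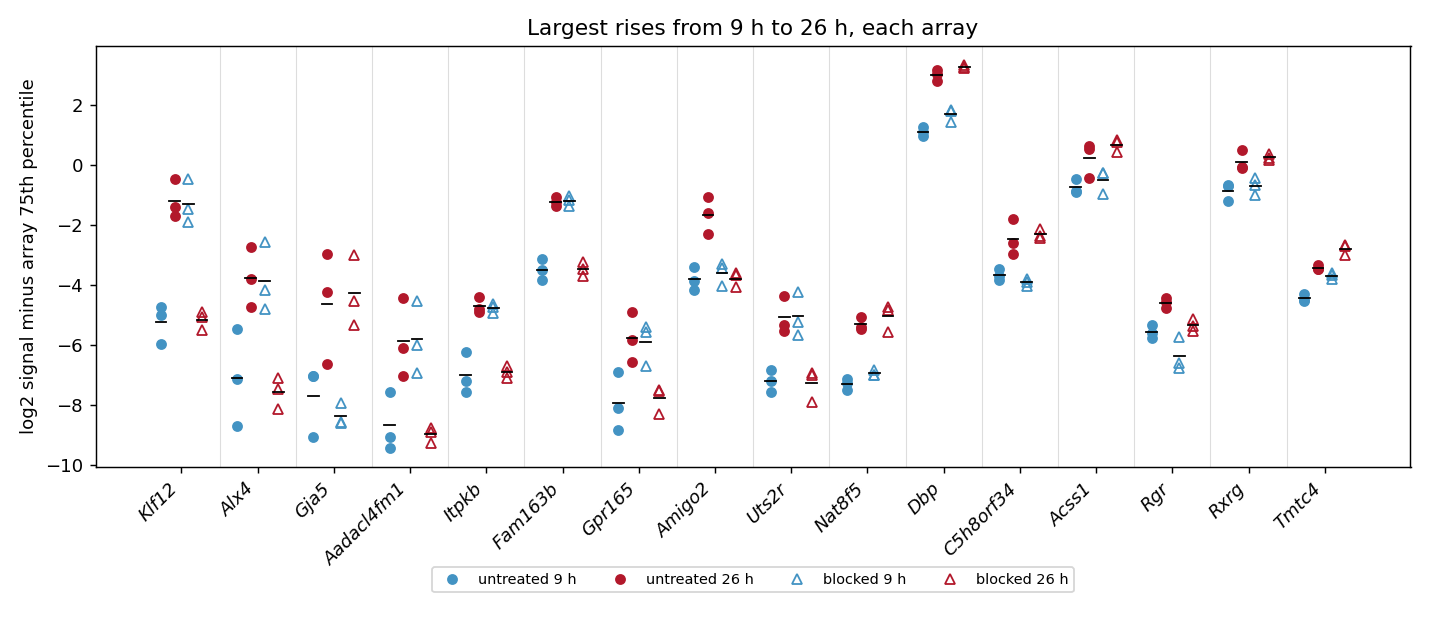
Level of each gene (log2 signal relative to the array's 75th percentile, y axis) in every array for the genes named by size of rise, with filled circles for untreated, open triangles for blocked cultures, and a bar at the mean of 3. For Klf12, Alx4, Aadacl4fm1, Itpkb, Fam163b, Gpr165 and Uts2r the blocked triangles run opposite to the untreated circles, for Amigo2 they stay low, and for the remaining genes they rise with them.

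Clock genes were among the groups with the most calls. Of 15 core clock genes tested, 6 were higher at 26 h and none lower past the threshold, against 10.3% and 9.84% over all genes. Of 7 output genes, 5 were higher and 1 lower. Their median differences in untreated cultures were 0.38 and 0.57, against 0.02 over all genes, and -0.16 and -0.22 in the blocked cultures.

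Dbp, a PAR-domain transcription factor and direct target of CLOCK and BMAL1, stood at 1.27, 0.98 and 1.09 at 9 h and at 2.80, 3.06 and 3.17 at 26 h, a difference of 1.90 ± 0.14 (adjusted p = 0.00014). In the blocked cultures it went from 1.84, 1.82 and 1.44 to 3.27, 3.34 and 3.25 (1.58, adjusted p = 0.00033). All 9 h arrays of either treatment lay below all 26 h arrays, and 3 Dbp probes rose by 1.90 to 2.17 in untreated and by 1.21 to 1.58 in blocked cultures. Per2, a repressor of CLOCK and BMAL1, stood at -2.62, -2.89 and -2.89 at 9 h and -1.28, -1.22 and -1.54 at 26 h (1.46 ± 0.14, adjusted p = 0.000311). Its rise in the blocked cultures, 0.70, was smaller, and the difference between them passed (adjusted p = 0.0163).

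Also higher in both pairs were Nr1d2, which encodes the repressor REV-ERB beta (0.68 and 0.60), and Tef, a PAR-domain factor like Dbp (0.31 and 0.45). The next 4 members were higher at 26 h in untreated cultures with no call in the blocked ones. They were Nr1d1, for REV-ERB alpha (0.89 ± 0.23, adjusted p = 0.0213), Npas2, the paralogue of Clock (0.81 ± 0.21, adjusted p = 0.0242), Bhlhe40, a repressor of E-box genes (0.54 ± 0.16, adjusted p = 0.0395), and Tspan4, a tetraspanin (0.57 ± 0.17, adjusted p = 0.0409). Their blocked differences were -0.26, -0.36, -0.04 and -0.22. A second Npas2 probe differed by 0.05 in the untreated cultures. In the 12 fits without 1 array, the call was lost in 11 for Tef, 10 for Tspan4, 9 for Bhlhe40, and 2 each for Npas2 and Nr1d1.

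The 4 members that passed with opposite signs were Nfil3, Usp2, Per3 and Leo1. Nfil3, the repressor that competes with Dbp for D-boxes, stood at -0.56, -0.27 and -0.24 at 9 h and 0.57, 0.88 and 0.48 at 26 h (1.00 ± 0.19, adjusted p = 0.00602), and differed by -1.26 in the blocked cultures. Usp2, a deubiquitinase under clock control, differed by 0.86 and -0.63, Per3, a period gene, by 0.80 and -0.75, and Leo1, a subunit of the PAF elongation complex, by -0.70 and 0.37. The 3 Per3 probes did not move alike: the untreated differences were 0.80, 0.62 and 0.16, and the blocked ones -0.75, 0.70 and 0.31.

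Clock, Bmal1 and the cryptochromes gave no call in the untreated cultures. Bmal1 differed by -0.25, Clock by -0.31, Cry1 by 0.02 and Cry2 by -0.21 between the untreated times, with adjusted p of 0.173 or more, although Bmal1 and Cry2 fell in the blocked cultures (-0.66 and -0.56, adjusted p = 0.0198 and 0.0288). A second Bmal1 probe differed by -0.56 in untreated and -0.60 in blocked cultures. Per1 (0.38), Ciart, a repressor of the loop (0.53, with 1.14 in blocked cultures), Wee1, a mitotic kinase (0.01), and the casein kinase genes Csnk1d and Csnk1e (-0.06 and 0.04) did not pass either. The other 2 Csnk1e probes differed by 0.41 and 0.32.

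**Figure D4:**
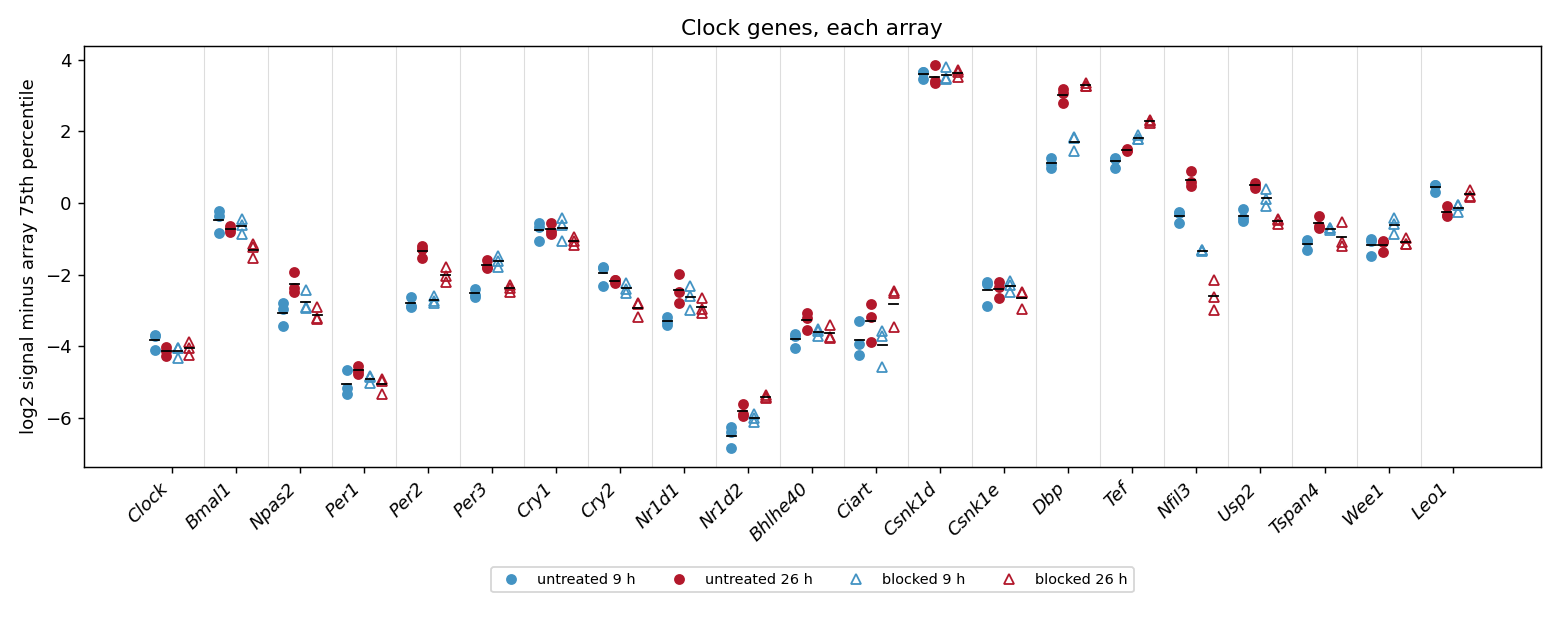
Level of 21 clock and clock-output genes (log2 signal relative to the array's 75th percentile, y axis) in every array, with filled circles for untreated, open triangles for blocked cultures, and a bar at the mean of 3. Dbp, Per2, Nr1d2 and Tef are higher at 26 h (red) than at 9 h (blue) under both treatments, and Nfil3, Usp2 and Per3 are higher at 26 h in untreated and lower at 26 h in blocked cultures.

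The 250 bases before the start of 4 of these genes, from RefSeq on the build GRCr8, are written 5′ to 3′ on the strand of the gene. They are 4 of the 6 clock genes with the smallest adjusted p. Dbp and Per2 rose in both pairs of groups and Nfil3 went opposite ways. Per3 went opposite ways on its brightest probe, while its other probes rose in both pairs. Capitals mark matches, on either strand, to the E-box CACGTG, its variant CACGTT (added after the sequences were seen), the D-box TTANGTAA, the cAMP response element TGACGTCA and the REV-ERB and ROR element NNTNGGTCA.
Per2, chr9:99496994-99497243, minus strand: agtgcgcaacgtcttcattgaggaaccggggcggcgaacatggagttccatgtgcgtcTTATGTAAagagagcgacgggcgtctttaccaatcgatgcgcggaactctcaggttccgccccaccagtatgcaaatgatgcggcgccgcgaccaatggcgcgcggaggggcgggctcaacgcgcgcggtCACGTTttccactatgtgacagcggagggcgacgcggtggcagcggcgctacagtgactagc
Dbp, chr1:105312006-105312255, plus strand: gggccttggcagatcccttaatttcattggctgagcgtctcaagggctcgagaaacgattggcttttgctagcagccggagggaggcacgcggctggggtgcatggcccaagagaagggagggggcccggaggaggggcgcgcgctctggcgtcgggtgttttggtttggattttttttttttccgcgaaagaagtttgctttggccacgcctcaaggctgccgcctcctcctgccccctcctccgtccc
Per3, chr5:166777801-166778050, minus strand: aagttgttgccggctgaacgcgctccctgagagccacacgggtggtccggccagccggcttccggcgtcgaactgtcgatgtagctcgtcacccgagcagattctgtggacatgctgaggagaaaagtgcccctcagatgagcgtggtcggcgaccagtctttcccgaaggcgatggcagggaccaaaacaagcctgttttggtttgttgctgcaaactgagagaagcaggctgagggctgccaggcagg
Nfil3, chr17:12432126-12432375, plus strand: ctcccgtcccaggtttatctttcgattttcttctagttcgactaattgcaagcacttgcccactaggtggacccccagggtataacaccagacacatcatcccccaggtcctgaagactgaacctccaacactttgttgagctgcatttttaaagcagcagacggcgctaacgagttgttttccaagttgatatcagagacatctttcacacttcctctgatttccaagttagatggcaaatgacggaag

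In the Per2 sequence the D-box match began at base 59 and the E-box variant at base 189, and the windows of Dbp, Per3 and Nfil3 held none of the motifs searched. Of the 22 clock genes tested, 17 had a sequence in the table. Of those 17, the E-box was in 3 (Bhlhe40, Ciart and Tef), the D-box in 1 (Per2), the variant in 3 (Per2, Cry2 and Nr1d1), the REV-ERB and ROR element in 2 (Bmal1 and Leo1) and the cAMP response element in none. Of all 33469 windows of this length, 5.59% held the E-box, 2.04% the D-box, 4.07% the variant, 9.40% the REV-ERB and ROR element and 1.59% the cAMP response element.

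Among immediate early genes, Fosl1 and Ccn1 fell most, while the synaptic activity reporters Fos, Arc, Egr1 and Npas4 gave no call. Of 31 tested, 6 were lower (19.4%) and 3 higher (9.68%) at 26 h, against 9.84% and 10.3% over all genes. In the blocked cultures 14 were lower and none higher, against 3084 lower and 2236 higher of all 21245 genes. The medians were -0.19 in untreated and -0.78 in blocked cultures. All 9 genes called in the untreated cultures are named here, 5 of them chosen after their values were seen. Fosl1, a late-acting AP-1 subunit, stood at 0.87, 0.19 and 0.67 at 9 h and -2.58, -2.34 and -2.74 at 26 h (-3.13 ± 0.46, adjusted p = 0.00178). Ccn1, a secreted matricellular protein, fell by 2.77 (adjusted p = 0.00795) from 0.36, -0.01 and 1.34 to -2.59, -2.49 and -1.54. The times did not overlap for either gene.

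Maff, a small Maf factor, fell by 1.43, Atf3, a stress-induced bZIP factor, by 0.92, Myc, a growth regulator, by 0.74, and Gadd45b, a DNA damage-inducible gene, by 0.57, with adjusted p from 0.0022 to 0.027. With Fosl1 (-2.18), these 4 were also lower at 26 h in the blocked cultures (-2.03, -1.18, -0.90 and -0.95), and Ccn1 did not pass there (-1.08, adjusted p = 0.194). The orphan nuclear receptor gene Nr4a1 rose from 0.38, 0.33 and 1.28 to 2.75, 2.02 and 1.39 (1.39 ± 0.34, adjusted p = 0.0172), and fell by 1.34 in the blocked cultures. Its relative Nr4a3 rose by 1.08 (adjusted p = 0.0316) and Klf2, a zinc-finger factor, by 0.77 (adjusted p = 0.0494), with 0.51 and -0.38 in the blocked cultures, neither past the threshold. Without the second untreated 26 h array, Klf2 differed by 0.48.

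The activity reporters, named after their values were seen, overlapped between the untreated times. Arc, which drives removal of AMPA receptors, stood at 1.08, 0.63 and 2.52 at 9 h and 1.49, 2.0 and 1.55 at 26 h. Npas4, a calcium-induced factor, differed by 1.02, Egr1 by 0.43, Arc by 0.27 and Fos by 0.21, with adjusted p from 0.24 to 0.713. In the blocked cultures Npas4 was at least 4.53-fold lower at 26 h, Egr1 fell by 1.20 and Arc fell by 1.67, all past the threshold, and the -0.64 of Fos did not pass. The third untreated 9 h array was the highest of its group for all 4.

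Of 37 late activity genes tested, 4 were higher (10.8%) and 5 lower (13.5%), near the 10.3% and 9.84% over all genes. All 5 lower ones also passed as lower in the blocked cultures, where 20 of the 37 were lower and 1 higher. Bdnf, the neurotrophin, stood at -0.64, -0.42 and -0.42 at 9 h and 0.39, 0.78 and 0.26 at 26 h (0.97 ± 0.15, adjusted p = 0.0022), and differed by -0.66 in the blocked cultures. Gadd45g, a relative of Gadd45b, fell by 1.01 (adjusted p = 0.00446), Acan, the perineuronal net proteoglycan aggrecan, by 1.00 (adjusted p = 0.00503), and Sorcs3, a postsynaptic sorting receptor, by 0.92 (adjusted p = 0.00437). Their blocked differences were -0.90, -1.43 and -0.68. A second Sorcs3 probe differed by -0.33 and -1.36.

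Of synaptic and channel genes, more were higher than lower at 26 h in untreated cultures, and fewer in blocked ones. The higher and lower calls were 6 and 0 of 21 for AMPA receptor genes and their partners, 6 and 1 of 21 for other glutamate receptors, 8 and 0 of 26 for the postsynaptic density, 11 and 1 of 36 for presynaptic genes, 7 and 0 of 23 for inhibitory synapses, and 5 and 0 of 22 for sodium and calcium channels. Over all genes, 10.3% were higher and 9.84% lower. Their medians ran from 0.14 to 0.31 in the untreated cultures and from -0.25 to -0.13 in the blocked ones, where 7 members in all were higher and 35 lower (a gene counted once per list), and no member passed with the same sign in both pairs. The medians of the synaptic and channel lists kept their sign with quantile normalization and normexp background correction. Crossed medians of this size were not limited to these lists. The 15 reference genes, such as Actb and Gapdh, had medians of 0.30 in untreated and -0.32 in blocked cultures. Over the 10 of them saturated in neither untreated group, the medians were 0.26 and -0.20. Only 1 of the 15 passed as higher in the untreated cultures and none as lower. The untreated median of the 15 reference genes became 0.05 with quantile normalization. Median scaling and the deposited matrix move each array by 1 constant, so they shift all medians nearly alike and could hardly change these signs. None of these settings separates scan day from time.

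Of the AMPA receptor group, Gria2, the subunit that makes the channel impermeable to calcium, stood at 0.59, 0.32 and 0.43 at 9 h and 1.22, 1.17 and 1.11 at 26 h (0.72 ± 0.11, adjusted p = 0.00184). In the blocked cultures it was at 1.16, 1.04 and 0.89 and then 1.06, 0.99 and 0.86, a difference of -0.06, and a second Gria2 probe differed by 0.56 in untreated and 0.63 in blocked cultures. Cacng7, an auxiliary subunit of the receptor, rose by 1.34 (adjusted p = 0.00119) and Grip2, a scaffold that binds it, by 0.81 (adjusted p = 0.00331), with -0.41 and -0.30 in the blocked cultures, neither past the threshold. A second Grip2 probe differed by -0.17.

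Of the other glutamate receptors, Grm5, the metabotropic receptor mGluR5, stood at -2.22, -2.19 and -2.41 at 9 h and -1.33, -0.83 and -0.94 at 26 h (1.24 ± 0.14, adjusted p = 0.000697), with 0.00 in the blocked cultures. Grin1, the obligatory NMDA receptor subunit, rose by 0.70 (adjusted p = 0.0135) and fell by 1.38 in the blocked cultures.

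At the postsynaptic density, Camk2b, the beta subunit of calcium/calmodulin kinase II, rose by 0.91 and Shank1, a master scaffold, by 0.55 (adjusted p = 0.00143 and 0.00424), and in the blocked cultures they fell by 0.79 and 0.44. A second Camk2b probe differed by 0.41 and -0.35. Presynaptically, Syn1, which tethers vesicles, stood at -1.11, -0.82 and -0.95 at 9 h and -0.32, 0.13 and 0.03 at 26 h (0.90 ± 0.13, adjusted p = 0.00156), and the blocked cultures ran from -0.05, 0.04 and 0.03 down to -0.85, -1.02 and -0.94. Its 4 group levels thus paired by scan day, like those of Klf12. Dnm1, the vesicle-fission dynamin, differed by 0.69 and -0.99. The exception was Doc2b, a calcium sensor of spontaneous release, which fell by 0.76 (adjusted p = 0.00967) and had a blocked difference of -0.31.

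Inhibitory receptor genes included Glra2 and Glrb, glycine receptor subunits (1.22 and 0.83, adjusted p = 0.00331 and 0.00192), and Gabrb1, a beta subunit of the GABA-A receptor (0.67, adjusted p = 0.00394). Of these 3, Glrb alone passed in the blocked cultures, with -0.46. Of 50 potassium and HCN channel genes, 10 were higher (20%) and 3 lower (6%), against 10.3% and 9.84% over all genes. The higher ones included Hcn4 and Hcn2, pacemaker channels (1.12 and 0.86), and Kcna1, a delayed rectifier (0.86), with adjusted p from 0.000924 to 0.00447. Hcn2 fell by 1.17 in the blocked cultures (adjusted p = 0.000969), where the -0.48 of Hcn4 and -0.26 of Kcna1 did not pass. The 5 higher of the 22 sodium and calcium channel genes included Cacnb3, a beta subunit (0.98, adjusted p = 0.00199), and Cacna1i, a low-threshold pore subunit (0.67, adjusted p = 0.0062). Their blocked differences were -0.34, which did not pass, and -1.09, which did, and a second Cacna1i probe differed by 0.60 and -0.42.

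**Figure D5:**
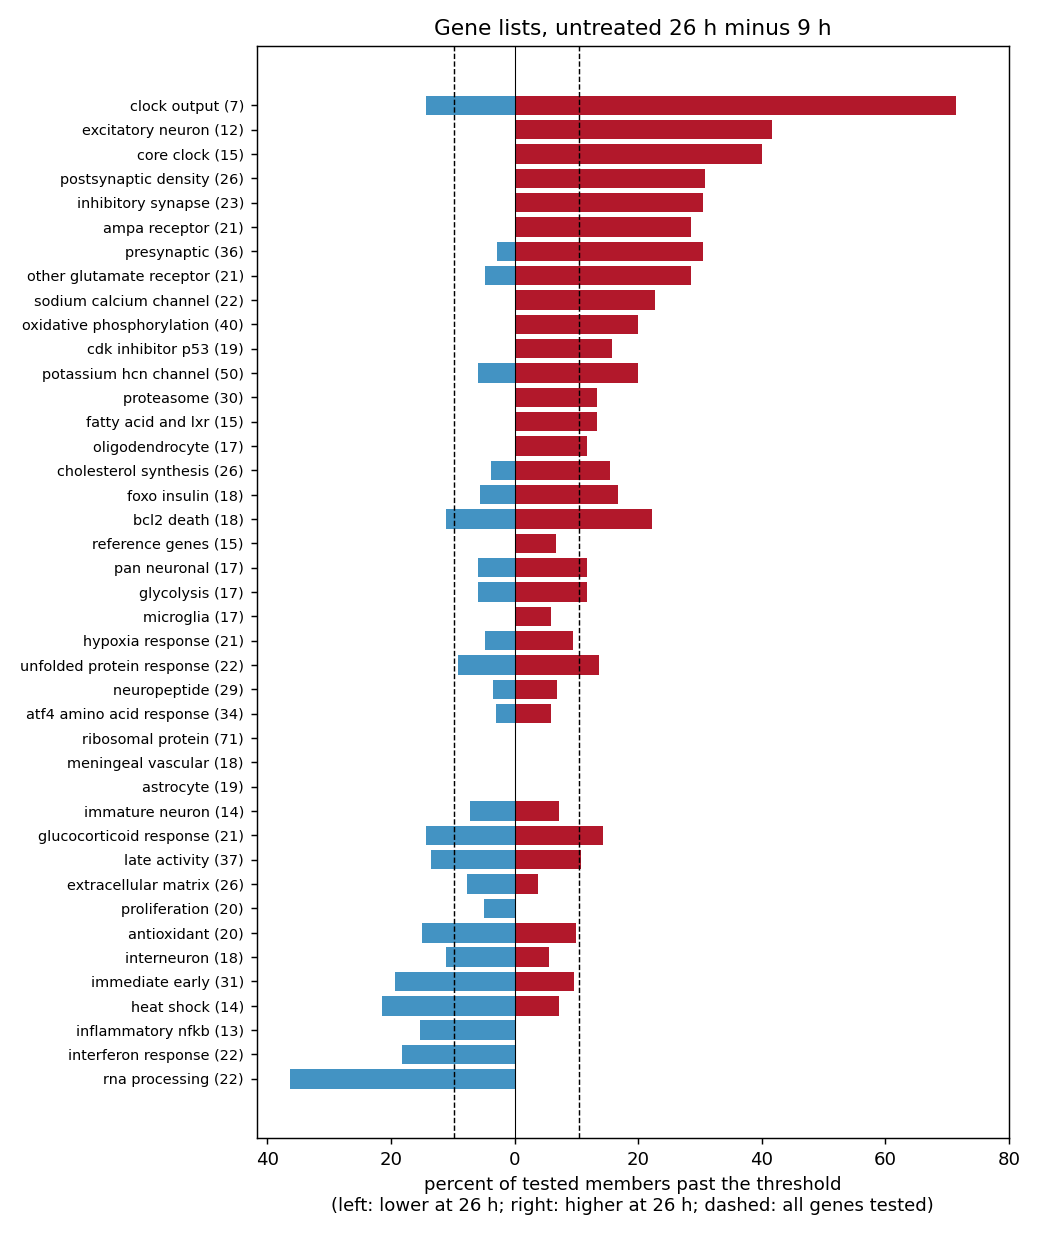
Percent of the tested members of each gene list (number tested in parentheses) that were higher (right, red) or lower (left, blue) at 26 h in untreated cultures at an adjusted p under 0.05, with dashed lines at 10.3% and 9.84%, the percents over all 21245 genes tested. Clock, excitatory neuron and synapse lists extend farthest to the right, and RNA processing to the left.

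Of 12 markers of excitatory neurons, 5 passed (41.7%), all higher, against 10.3% higher over all genes, and 7 did not pass. The median of the 12 was 0.61 in untreated and -0.29 in blocked cultures, where 2 were higher and 4 lower past the threshold. The summed signal of the 12, relative to the 75th percentile of each array, was 12.7 to 14.6 in untreated cultures at 9 h and 17.0 to 22.3 at 26 h, without overlap, and 20.7 to 23.3 and 22 to 25.1 in the blocked cultures. Neurod1, a factor of granule and excitatory neurons, stood at -1.26, -1.49 and -1.42 at 9 h and -0.28, -0.51 and -0.54 at 26 h (0.95 ± 0.16, adjusted p = 0.0037), and rose by 0.85 in the blocked cultures. Fezf2 and Neurod6, factors of cortical and hippocampal projection neurons, rose by 0.81 and 0.71 (adjusted p = 0.00448 and 0.00603) and fell by 0.52 and 0.58 in the blocked cultures. Zbtb20, a factor of hippocampal pyramidal identity, rose by 1.01 (adjusted p = 0.00416) on its brighter probe and differed by -1.88 on another, so its direction depends on the probe.

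The labelled cell type was checked against defining markers, which included those of other cells. The neuronal genes Map2, Rbfox3, Slc17a7 and Gad1 were well above background on every untreated array, as were the astrocyte genes Gfap and Aqp4, the oligodendrocyte-lineage genes Mbp and Pdgfra, the microglial genes Aif1 and Cx3cr1, the fibroblast genes Col1a1 and Dcn and the choroid plexus gene Ttr. Of these 13, Map2 (0.44, adjusted p = 0.0346) and Cx3cr1 passed, and the other 11 differed by -0.23 (Mbp) to 0.43 (Gfap), with adjusted p of 0.165 or more. Map2 differed by 0.28 in the blocked cultures and did not pass. Second probes gave other values for Aif1 (-0.80), Col1a1 (0.71) and Mbp (-0.82) in the untreated cultures, and Aqp4 gave 0.39 and 0.88 on its other probes. Cx3cr1, the microglial fractalkine receptor, stood at -1.56, -1.03 and -1.15 at 9 h and -0.39, 0.28 and 0.08 at 26 h (1.24 ± 0.22, adjusted p = 0.00439), with -0.17 in the blocked cultures.

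Across whole marker lists, no astrocyte gene of 19 and no meningeal or vascular gene of 18 passed, 1 microglial gene of 17 was higher (5.88%), and 2 oligodendrocyte genes of 17 were higher (11.8%), against 10.3% over all genes. The 2 were the lineage factors Olig1 and Sox10 (1.02 and 0.92, adjusted p = 0.00766 and 0.0493), with -0.31 and -0.02 in the blocked cultures, neither past the threshold. By limma without adjustment, no astrocyte gene and 2 meningeal or vascular genes had a p under 0.05. Summed microglial signal was 4.12 to 4.70 at 9 h and 5.15 to 5.46 at 26 h, oligodendrocyte signal 17.2 to 21.8 and 19.7 to 32.5, and astrocyte signal 104 to 147 and 127 to 177. The same sums in the blocked cultures were 4.24 to 5.09 and 4.64 to 5.16, 14.2 to 20.8 and 16.1 to 21.8, and 115 to 148 and 109 to 137. The meningeal and vascular sum varied more between replicates than between the times: 3.89, 8.36 and 35.5 in replicates 1 to 3 at 9 h, and 3.52, 7.27 and 30.2 at 26 h. The part of other cell types in the differences named here was not tested.

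Srxn1, which repairs oxidised peroxiredoxins and is a target of NRF2, stood at 3.67, 3.98 and 4.16 at 9 h and 1.72, 1.97 and 1.86 at 26 h (-2.09 ± 0.16, adjusted p = 0.00017), and fell by 1.62 in the blocked cultures. Of 20 antioxidant genes 3 were lower and 2 higher, near the shares over all genes, and the only other one lower in both pairs was Txnrd1, thioredoxin reductase (-0.68 and -1.22), chosen after its value was seen. Bag3, a co-chaperone of selective autophagy, fell by 1.73 (adjusted p = 0.0022), with -0.30 in the blocked cultures. It was 1 of 3 lower among 14 heat shock genes (21.4%, against 9.84% over all genes). The chemokine genes Ccl2 and Cxcl1 fell by 2.52 and 2.0 (adjusted p = 0.048 and 0.00466), and differed by -1.34 and -0.90 in the blocked cultures, neither past the threshold. They were the 2 calls among 13 inflammatory genes (15.4% lower, against 9.84% over all genes).

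Of 22 interferon response genes, 4 were lower (18.2%) and none higher in the untreated cultures, against 9.84% and 10.3% over all genes. In the blocked cultures 6 were higher and none lower, against 2236 higher and 3084 lower of all 21245 genes. The medians were -0.17 in untreated and 0.50 in blocked cultures. Rsad2, the antiviral viperin, differed by -2.0 and 1.04. RNA processing factors had 8 lower of 22 (36.4%, against 9.84% over all genes) and none higher, the largest share of lower calls of the 41 lists. Tra2a, a splicing regulator, stood at 1.60, 1.71 and 1.69 at 9 h and 0.87, 0.74 and 0.94 at 26 h (-0.81 ± 0.09, adjusted p = 0.000497), and rose by 0.58 in the blocked cultures. Srsf3, an SR splicing factor, fell in both pairs (-0.64 and -0.72, adjusted p = 0.00232 and 0.0011), and Srsf7 did likewise (-0.75 and -0.37). A second Srsf3 probe differed by -0.33 and -0.21.

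Zbtb16, a transcription factor strongly induced by glucocorticoids, stood at -4.95, -5.04 and -5.11 at 9 h and -3.68, -3.79 and -3.82 at 26 h (1.27 ± 0.12, adjusted p = 0.000319), with 0.00 in the blocked cultures. Of 21 glucocorticoid-responsive genes 3 were higher and 3 lower (14.3% each), near the 10.3% and 9.84% over all genes. Fkbp5, a chaperone of the receptor, fell by 0.66 (adjusted p = 0.0199) and Sgk1, a kinase, rose by 0.79 (adjusted p = 0.00793). Sgk1 fell by 0.52 in the blocked cultures (adjusted p = 0.0399), where the -0.45 of Fkbp5 did not pass. Calr, the calcium-binding chaperone calreticulin, rose from 1.42, 1.58 and 1.57 to 2.66, 2.86 and 2.66 (1.21 ± 0.16, adjusted p = 0.00116), with 0.11 in the blocked cultures, whereas Atf6, a sensor of unfolded proteins, fell by 0.90 (adjusted p = 0.00243), with 0.19 in the blocked cultures and -0.58 on a second probe in the untreated ones.

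Of 40 oxidative phosphorylation genes, 8 were higher (20%) and none lower, against 10.3% and 9.84% over all genes. Each of the 8 rose by little, such as Ndufs7 of complex I (0.52, adjusted p = 0.0022, with -0.18 in the blocked cultures, not past the threshold). The median of the 40 genes, 0.24, became 0.04 under quantile normalization, and it was 0.07 over the 31 members saturated in neither untreated group. Of 71 ribosomal protein genes none passed by limma, and 3 had an unadjusted p under 0.05. For 51 of the 71 the probe was saturated on all arrays of at least 1 untreated group, and over the 328 genes saturated on all 6 untreated arrays the scaled difference was 0.31 at the median (-0.37 in blocked cultures), so no difference in ribosomal genes can be read from these probes.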

How the data were processed

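Total RNA (200 ng) was labelled with Cy3 and hybridised to single-colour Agilent rat arrays, per the labels. Per the file headers, Feature Extraction 10.5.1.1 wrote each deposited processed signal, a background-subtracted intensity that is not scaled across arrays. A deposited matrix of log2 values differs from log2 of that signal by 1 constant per array (11.2 to 11.6, column medians of 7.57 to 7.75). The rule behind the constants is not given in the sources used here, and the matrix was used as an alternative.

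Each array's log2 signals were set relative to its 75th percentile, taken over spots other than controls. Outlier spot values (3751) and control spots were left out, and spots of a probe were averaged. Probes were kept (24029 of 30367) where at least 1 of the 4 groups had them well above background throughout. Transcript accessions tied 18004 probes to a gene, and the brightest kept probe stood for a gene, which left 21245 genes and unnamed targets, 12327 with a symbol. A single model held all 12 arrays, so that the groups share an estimate of spread (limma 3.58.1 in R 4.3.3, empirical Bayes, two-sided). Contrasts were untreated 26 h minus 9 h, blocked 26 h minus 9 h and the difference between these, with Benjamini-Hochberg adjustment over all genes and a threshold of 0.05. The median SE was 0.17 log2, and 3 arrays per group limit the precision. The analysis was tested on simulated data.

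Members and lists (41 lists, 919 distinct genes tested) were chosen with earlier results of these data known, so list counts are descriptions. The text names the 10 largest rises and falls whose arrays do not overlap, the 8 largest rises and falls of the same sign in both pairs of groups, the 4 largest opposed in each direction, clock genes, up to 4 genes of a list by adjusted p, and defining cell type markers. Some genes that this rule names are not reported here. A gene not well above background on any array of a group has a bound as its fold. Alternatives covered scaling, background, filters, probe choice, replicate and slide blocks, array weights, scan day and each array left out.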

Additional observations from a re-analysis of the deposited data

Results flagged for a closer look

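The differences named here are the untreated time difference minus the blocked time difference on the log2 scale, listed because limma's test of that difference passed an adjusted p of 0.05 (Benjamini-Hochberg over 21245 genes, 3 arrays a group). The scan days run in opposite orders in the untreated and the blocked cultures, so in each of these values the blockade and the scan day cannot be told apart. For Aadacl4fm1, Esam, Gpr165 and Npas4 at least 1 of the 4 groups had no array well above background, so their values are fitted to dim signals and their sizes are not measured. Each value rests on the brightest probe of its gene. Other probes gave (untreated, then blocked) -1.88 and 0.86 for Zbtb20, -0.17 and 0.16 for Grip2, and 0.56 and 0.63 for Gria2. For Per3 they gave 0.62 and 0.70 or 0.16 and 0.31, for Sypl2 -0.29 and -0.45, and for Fcgr2b -0.49 and -0.61. On those probes the sign of the difference was reversed. The other genes here with a further probe kept it, some at a smaller size.

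Among genes named for the size of their change, this difference was 7.92 for Klf12, 7.06 for Alx4, 6.0 for Aadacl4fm1, 4.43 for Itpkb and 4.53 for Fam163b. It was 4.06 for Gpr165, 4.39 for Uts2r, 2.35 for Amigo2, 2.28 for Gprc5a and -1.87 for Sypl2. The difference came to -2.09 for Esam, -4.13 for Fzd6, -1.88 for Hyal2, -1.82 for Fcgr2b and -1.84 for Snrnp48. The adjusted p-values of these 15 ran from 2.79e-05 to 0.0354.

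Among the clock genes, this difference was 0.76 for Per2, 1.54 for Per3, 1.14 for Nr1d1, 1.17 for Npas2 and 2.27 for Nfil3. It was 1.49 for Usp2, 0.79 for Tspan4 and -1.07 for Leo1. Over these 8 genes the adjusted p-values ran from 0.000246 to 0.0329.

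Among the activity genes, this difference was 2.73 for Nr4a1, 1.15 for Klf2, 3.84 for Npas4, 1.94 for Arc and 1.63 for Egr1. It was 1.63 for Bdnf. The adjusted p-values of these 6 ran from 0.000585 to 0.0309.

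Among the glutamate receptor and postsynaptic genes, this difference was 0.78 for Gria2, 1.75 for Cacng7, 1.11 for Grip2, and 1.24 for Grm5. It was 2.07 for Grin1, 1.70 for Camk2b and 0.99 for Shank1. Over these 7 genes the adjusted p-values ran from 0.000255 to 0.00391.

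Among the presynaptic, inhibitory and channel genes, this difference was 1.85 for Syn1, 1.67 for Dnm1, 1.31 for Glra2, 1.29 for Glrb and 0.80 for Gabrb1. It was 1.60 for Hcn4, 2.03 for Hcn2, 1.12 for Kcna1 and 1.33 for Cacnb3. The difference came to 1.76 for Cacna1i. The adjusted p-values of these 10 ran from 0.000205 to 0.00767.

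Among the cell type markers, this difference was 1.32 for Fezf2, 1.29 for Neurod6, 1.19 for Zbtb20 on its brighter probe, 1.40 for Cx3cr1 and 1.33 for Olig1. It was -1.09 for Pecam1. Over these 6 genes the adjusted p-values ran from 0.00117 to 0.0262.

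Among the stress, interferon, splicing, hormone and energy genes, this difference was -1.09 for Atf6, -1.44 for Bag3, 1.1 for Calr, 0.69 for Ndufs7 and -3.04 for Rsad2. It was 1.30 for Sgk1, -1.39 for Tra2a and 1.27 for Zbtb16. The adjusted p-values of these 8 ran from 0.00015 to 0.017.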

How the results depend on the processing

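Of the 4289 genes past the threshold, 1519 passed with the same sign in a fit of only the 6 untreated arrays (1531 in all, 735 higher and 796 lower), and 4289 with the replicate block (7323 in all, 3767 higher and 3556 lower, with 1276 of the same sign in both pairs of groups and 9507 for the difference between the pairs). Same-numbered untreated arrays of 9 h and 26 h correlated in their deviations at 0.44, -0.04 and 0.55, so not every pair is over 0.1 and they are treated as sharing only a number. Each of the 12 arrays correlated best with its own number over all groups, and 4 of the 6 untreated ones did so within the untreated groups, a hint from the data that is not in the design. Slide as a random block left 4000 genes, but 3531 for the difference between the pairs. Without a filter on dim probes 3160 genes were lower, and with array weights 3371. Leaving out 1 array gave 2494 to 4030 genes (1275 to 2198 higher, 1219 to 2138 lower), 316 to 482 with the same sign in both pairs, and 4722 to 6187 for the difference between the pairs. The other settings (median scaling, quantile normalization, the deposited matrix, normexp, the filter on the untreated groups, mean of probes, outlier spots kept, trended and robust eBayes) gave 3672 to 5076 genes. The cause of these changes in count was not tested.

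With scan day as a term beside time and blockade, 2700 genes passed, 1048 of them higher, and 1435 of the 4289 kept their call and sign. Within scan day 1 (blocked 26 h minus untreated 9 h) 2892 passed, 1202 of them higher, and within scan day 2 (untreated 26 h minus blocked 9 h) 751 passed, 269 higher and 482 lower. These within-day values hold time and blockade together. Of the 99 named genes past the threshold, 56 kept call and sign with the day term, 51 within day 1 and 30 within day 2. The day term leaves the mean of the untreated and the blocked time difference, not the untreated one freed of scan day. With the day term, 20 named genes changed sign. The difference became -0.17 for Aadacl4fm1, -0.18 for Alx4, -0.70 for Arc, -0.21 for Cacna1i, -0.16 for Cry1, -0.15 for Csnk1e, -0.15 for Dnm1 and -0.39 for Egr1. It became -0.0040 for Fam163b, -0.21 for Fos, -0.34 for Grin1, -0.16 for Hcn2, 0.31 for Mbp, -0.13 for Nfil3 and -0.90 for Npas4, and 0.016 for Pecam1, 0.055 for Snrnp48, -0.022 for Syn1, -0.051 for Uts2r and -0.23 for Wee1. Within day 1, 29 named genes changed sign. The difference became -0.30 for Aadacl4fm1, -0.46 for Alx4, -3.50 for Arc, -2.44 for Bdnf, -0.17 for Cacna1i, -0.30 for Cry1, 0.039 for Csnk1d, -0.22 for Csnk1e, 0.13 for Doc2b and -1.43 for Egr1. It became 0.87 for Fcgr2b, -0.18 for Fezf2, -1.96 for Fos, -0.33 for Grin1, -0.094 for Hcn2, -0.47 for Kcna1, -0.65 for Klf2, 0.026 for Mbp, -2.23 for Nfil3, -0.058 for Npas2 and -5.48 for Npas4, and -2.54 for Nr4a1, 0.51 for Pecam1, -0.019 for Per1, -0.93 for Sgk1, 0.0076 for Snrnp48, -0.057 for Sox10, -0.13 for Usp2 and -0.070 for Uts2r. Within day 2, 24 named genes changed sign. The difference became -0.038 for Aadacl4fm1, -0.25 for Cacna1i, -0.077 for Cacnb3, -0.28 for Camk2b, -0.032 for Cry1, 0.20 for Cry2, -0.088 for Csnk1e, -0.44 for Dnm1 and -0.033 for Fam163b. It became 0.073 for Gadd45b, -0.10 for Glrb, -0.35 for Grin1, -0.25 for Grip2, -0.22 for Hcn2, 0.58 for Mbp, -0.48 for Neurod6, -0.093 for Per3 and -0.11 for Shank1, and 0.10 for Snrnp48, 0.017 for Sorcs3, -0.066 for Syn1, -0.35 for Tef, -0.032 for Uts2r and -0.55 for Wee1.

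Of the 99, 74 passed in every fit without 1 array and none changed sign there. The other 25 lost their call without at least 1 array: Aadacl4fm1, Acss1, Alx4, Bhlhe40, Ccl2, Cldn14, Fcgr2b, Fkbp5, Gadd45b, Gja5, Gpr165, Il1rl1, Klf2, Map2, Npas2, Nr1d1, Nr4a1, Nr4a3, Rgr, Rsad2, Snrnp48, Sox10, Tef, Tspan4 and Txnrd1. Among genes not past the threshold, leaving out 1 array turned the sign of 6, with ranges of -0.12 to 0.82 for Arc, -0.13 to 0.12 for Cry1, -0.22 to 0.030 for Csnk1d, -0.18 to 0.16 for Csnk1e, -0.91 to 0.32 for Mbp and -0.14 to 0.11 for Wee1. Further changes of sign were -0.00062 for Wee1 with median scaling, -0.0024 for Wee1 with quantile normalization, -0.026 for Csnk1e with array weights, and -0.43 for Zbtb20 with the mean of its probes. Signal over background limits Tfpi2, Hsd17b2, Esam, Slfn2, Il1rl1, Adam2, Mptx1 and Aadacl4fm1 to bounds, as it does Plau, Gpr165 and Npas4 in the blocked cultures, and saturation limits the ribosomal genes.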
